A study of Mus musculus with 2 samples.

Results

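The sites described here are stretches of the mouse genome where chromatin immunoprecipitation sequencing (ChIP-seq) gave many reads with antibodies to STAT5 and almost none with an antibody to STAT3. Chromosomes 1 to 19 of the mm9 build were cut into tiles of 400 bp, each read was moved 50 bp in its 3′ direction towards the middle of its fragment, and a tile was a member when it held 80 or more STAT5 reads and 5 or fewer STAT3 reads. Of member tiles that touched, the one with most STAT5 reads was kept, and a tile with over 80% of its STAT5 reads on 1 strand would have been dropped, which removed none. The rule gave 1015 sites among the 4964342 tiles with a read of either library. Because the members were chosen on these same STAT5 and STAT3 counts, their height with STAT5 and their low STAT3 count are given as a description, without a test.

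STAT proteins wait in the cytoplasm until a cytokine receptor and its Janus kinases phosphorylate them, after which they pair, enter the nucleus and bind DNA at elements built around an inverted repeat. STAT3 is the main STAT downstream of IL-6 and is needed for T helper 17 (Th17) cells, a class of CD4 T cells named for their product IL-17. STAT5A and STAT5B, a pair of closely related proteins, act downstream of IL-2, which restrains Th17 cells and sustains regulatory T cells, and both STATs recognise very similar DNA.

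The cells were wild-type C57BL/6J T cells from spleen and lymph nodes, sorted as naive CD4+CD44-CD62L+ cells and kept for 3 days on antibodies to CD3 and CD28 with TGF-beta at 2 ng/ml, IL-6 at 20 ng/ml and antibodies to IL-4 and IL-2, the last given in the labels in IU/ml (100). From this unit it is unclear if the culture blocked IL-2 or supplied it. The STAT3 library came from cells given IL-6 at 40 ng/ml for 30 minutes, and the STAT5 library, made with a mixture of STAT5a and STAT5b antibodies, from cells given IL-2 at 200 IU/ml for 30 minutes. Antibody and cytokine therefore changed together and cannot be told apart at any site. There was 1 library per antibody, so the libraries are compared without p-values, and the exact 95% intervals given below reflect counting error alone. The STAT3 library held 20784388 reads on nuclear chromosomes and the STAT5 library 17963766, and each read had its own position and strand, so that a tile could hold at most 800.

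The members were tall sites of sharply unequal height. Their STAT5 counts ran from 80 to 490 reads with a median of 113 (quartiles 94 and 150), and their STAT3 counts had a median of 4. Scaled to 1000000 nuclear reads (RPM), the median member had 6.29 RPM with STAT5 and 0.192 RPM with STAT3. Most members were near the lower limit: 102 of 1015 had 200 or more STAT5 reads and 16 had 300 or more. In 31 members (3.05%) no STAT3 read was seen, in 97 there was 1 read and in 272 (26.8%) there were 5. The median STAT5 count was 109 in members with 0 STAT3 reads and 113 in those with 5, so height with STAT5 was similar at either end of the STAT3 range. Over the 984 members with a STAT3 read, the ratio of STAT5 to STAT3 RPM ran from 18.5 to 334 with a median of 40.5. The median of 4 STAT3 reads was close to the autosomal mean of 3.26 per 400 bp, so these ratios mostly set STAT5 against a level near that mean. A low count in such data may mean no protein bound, few cells with it bound or little of it bound per cell, which cannot be told apart.

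Members were a small part of the tall STAT5 tiles. Of 27660 tiles with 80 or more STAT5 reads, 1045 held 5 or fewer STAT3 reads before touching tiles were merged, which is 3.78% (exact 95% interval 3.56 to 4.01%). A ratio of RPM whose interval lay wholly above 2-fold was far more frequent, in 48.2% of the tall tiles, and all 1015 members had such an interval by construction. The interval lay above 10-fold in 856 members (84.3%), which also follows largely from the limits, since the lowest interval among members began at 7.61. The share of all tall tiles above 10-fold was not computed. The opposite kind of tile was rarer still: of 20596 tiles with 80 or more STAT3 reads, 12 held 5 or fewer STAT5 reads, which is 0.0583%. These numbers are not on equal terms, because the libraries differed in depth and in their number of tall tiles. The STAT3 library was deeper, with an autosomal mean of 3.26 reads per 400 bp against 2.83 for STAT5, but had fewer tall tiles. With STAT3 thinned to the STAT5 depth, the share of 3.78% became 4.78%, which is farther from the 0.0583% found at full depth. The opposite share was not recalculated. The plot of tall tiles by both counts shows no gap at the limit of 5 STAT3 reads: 280 tall tiles held 5 and 331 held 6, with medians of 112.5 and 115 STAT5 reads. At the STAT5 limit, 110 tiles with few STAT3 reads had from 80 to under 85 STAT5 reads and 122 had from 75 to under 80. The limits thus cut a continuous range, and the members are its low STAT3 end.

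**Figure D1:**
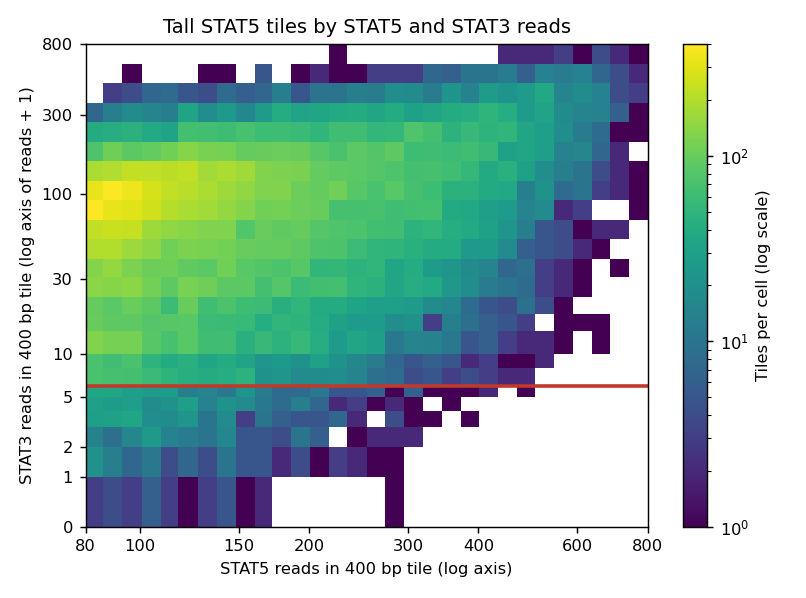
Tiles of 400 bp with 80 or more STAT5 reads, by STAT5 reads (horizontal, log axis) and STAT3 reads (vertical, log axis of reads + 1); colour gives the number of tiles in each cell on a log scale. The red line lies between 5 and 6 STAT3 reads, and the 1045 tiles under it join the rest without a gap and thin out as STAT5 height grows.

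Few of the tallest STAT5 tiles lacked STAT3. The share with 5 or fewer STAT3 reads was 5.34% (4.82 to 5.91%) among the 6681 tiles with 80 to under 100 STAT5 reads, 4.91% (4.47 to 5.38%) from 100 to under 150 and 3.55% (3.02 to 4.14%) from 150 to under 200. It was 2.02% (1.62 to 2.49%) from 200 to under 300 and 0.448% (0.256 to 0.726%) among the 3572 tiles with 300 or more. The intervals of the lowest classes overlap, and those of the 3 highest do not overlap one another. Both counts entered the rule, so this is a description of where its members lie.

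**Figure D2:**
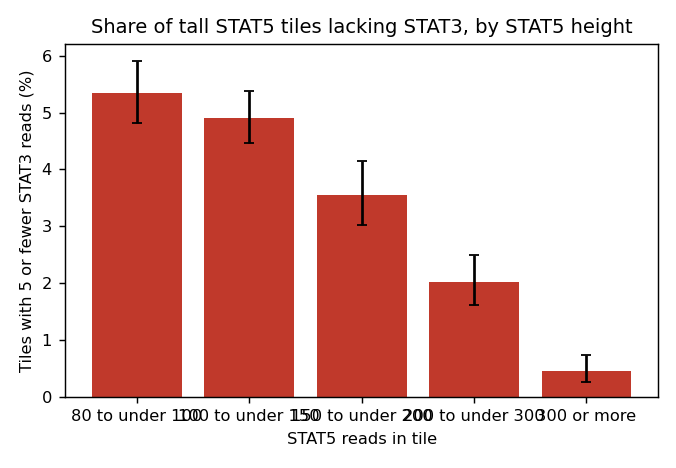
Share of tall STAT5 tiles with 5 or fewer STAT3 reads (vertical, percent) in classes of STAT5 reads per tile (horizontal); bars are shares and lines their exact 95% intervals, which cover counting error only. The share is 5.34% in the lowest class and 0.448% in the highest.

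The tallest member lay on chr8:127616000-127616399 and had 490 STAT5 reads and 5 STAT3 reads, a ratio of RPM of 113 (interval 48.3 to 351). It belonged to a group of STAT5 peaks, since another member with 169 STAT5 and 5 STAT3 reads began 800 bp further on, at 127616800, and the tile between them held 230 STAT5 and 9 STAT3 reads. The second, on chr3:40707200-40707599, had 407 STAT5 and 5 STAT3 reads and stood alone. No other tall STAT5 tile lay within 50 kb of it, touching tiles aside, and the 10 kb around it held 465 STAT5 and 36 STAT3 reads in all. The third, on chr18:40018400-40018799, had 402 and 5 reads. On chromosome 15 the member from 62061200 to 62061599 had 376 STAT5 and 3 STAT3 reads in a dense neighbourhood, with 17 other tall STAT5 tiles within 50 kb, of which 2 also held 5 or fewer STAT3 reads. A tile 9200 bp away from it held 106 STAT5 and 89 STAT3 reads, so that a site rich in STAT3 reads stood close to one with few.

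Further members had over 300 STAT5 reads. On chr2:131351600-131351999 there were 373 STAT5 and 5 STAT3 reads, although a tile with 30 or more STAT3 reads lay 1200 bp away. On chr12:32344000-32344399 there were 365 and 4 reads, and a tile 2400 bp away held 122 STAT5 and 48 STAT3 reads. The member on chr6:54714000-54714399 had 355 and 5 reads, and that on chr9:88232400-88232799 had 314 and 3. At both of these sites a tile rich in STAT3 was near, at 1600 and 3600 bp. Members on chr1:74719200-74719599 (321 STAT5 and 5 STAT3 reads) and on chr14:76799200-76799599 (318 and 4) were farther from such a tile, at 10800 and 14800 bp. The member on chr5:3477600-3477999 had 338 and 3 reads, but touched a tile with more STAT5 reads (523). On chr13:37232400-37232799 310 STAT5 reads met 2 STAT3 reads, and the RPM ratio of 179 had a wide interval (49.2 to 1487).

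**Figure D3:**
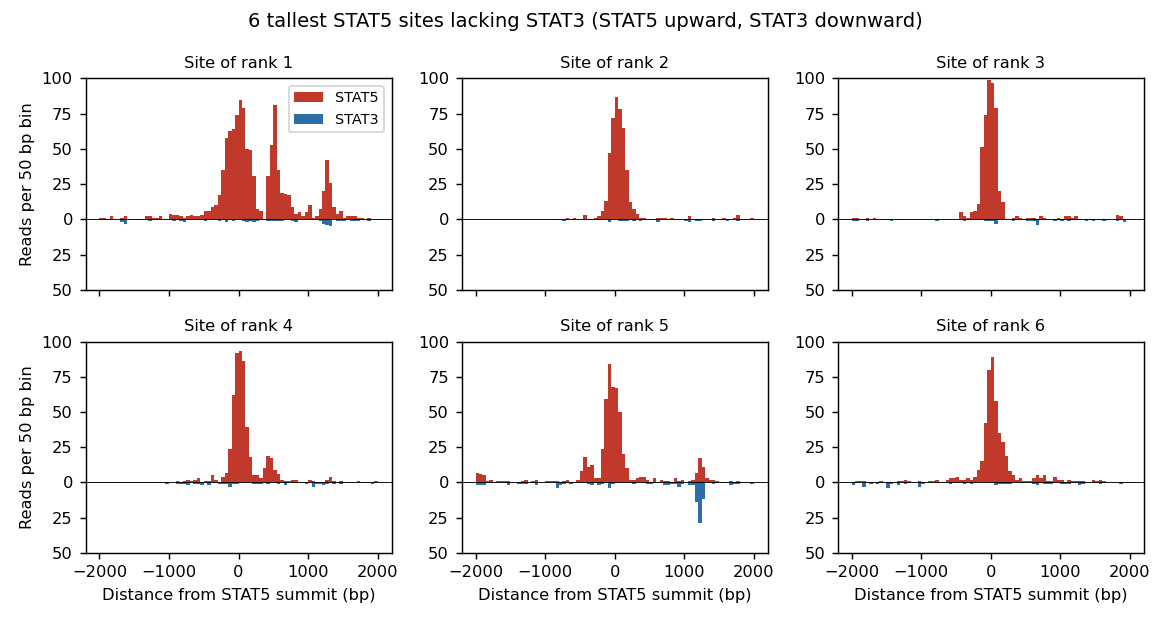
Reads in bins of 50 bp (vertical) within 2000 bp of the STAT5 summit (horizontal) at the 6 tallest members, with STAT5 reads drawn upward and STAT3 reads downward. At the site of rank 1 several STAT5 peaks follow each other, and at the site of rank 5, on chromosome 2, a STAT3 peak stands beside the STAT5 peak without lying under it.

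A count of 0 STAT3 reads allows up to 3 reads in the tile and gives no finite RPM ratio. For such members the lower end of the exact 95% interval of the ratio is given. The tallest member with 0 STAT3 reads lay on chr3:135984800-135985199, where there were 287 STAT5 reads and the interval of the ratio began at 89.4. This site was remote from STAT3, with the nearest tile of 30 or more STAT3 reads 234800 bp away. The next were on chr1:129636000-129636399 and on chr4:122500000-122500399, each with 163 STAT5 reads and an interval that began at 50.5. They were followed by chr3:83918800-83919199 with 158 STAT5 reads, which were unequal by strand (40 plus and 118 minus). Then came chr9:32752800-32753199 with 147 and chr13:95564400-95564799 with 147. In the 400 bp centred on the STAT5 summit, these 6 sites had 4, 3, 0, 0, 3 and 5 STAT3 reads in the order given, so the absence of reads held for both placings of the window at 2 of them.

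Tile borders can cut a site, so both libraries were recounted in 400 bp centred on the densest STAT5 position of each member, called the summit. The centred window held a median of 136 STAT5 reads (range 59 to 522) and 4 STAT3 reads (range 0 to 55). It held 5 or fewer STAT3 reads at 766 of 1015 members (75.5%, interval 72.7 to 78.1%) and 10 or fewer at 971 (95.7%). The rule's low STAT3 count was therefore exceeded slightly at many members and greatly at few. At 3 members, named after their values were seen, the centred window held 30 or more STAT3 reads: 55 on chr4:3880000-3880399, 41 on chr2:66026800-66027199, and 30 on chr11:106991200-106991599. Each touched a tile with more STAT5 reads (217, 364 and 197) and more STAT3 reads (66, 49 and 51), of which it was the edge. In all, 93 members (9.16%) touched a tile with more STAT5 reads than their own, and in 13 of these that tile held 30 or more STAT3 reads.

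Apart from such edges, the members had the form of ChIP fragments. The 5′ ends of reads on the minus strand lay to the right of those on the plus strand at 1014 of 1015 members, by a median of 106 bp. The exception, on chr15:62102400-62102799, had an offset of -1.5 bp and touched a tile of 714 STAT5 and 276 STAT3 reads. Tall STAT5 tiles found by the same rule with 30 or more STAT3 reads (15901 tiles, called STAT3-rich here) had a median offset of 91.5 bp, and the 5445 with 6 to 29 STAT3 reads had 100.5 bp. An offset above 0 was as common there, at 99.7% and 99.1% of tiles. The medians differed more. The order of the medians was the same within classes of height: from 80 to under 100 STAT5 reads they were 106 bp in members and 88 bp in STAT3-rich tiles, and from 200 to under 300 reads 104 and 96 bp. Read pairs were not sequenced, so the offset stands for the fragment length only where reads surround a single point.

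Below 300 reads, peaks at members were about as wide as others of their height, and fewer STAT5 reads lay beside them. The smoothed STAT5 count stayed at or above 50% of its maximum over a median of 113 bp in members. From 80 to under 100 STAT5 reads the median width was 97 bp in members and 96 bp in STAT3-rich tiles, from 150 to under 200 reads it was 127 and 128 bp, and from 200 to under 300 reads 150 and 151.5 bp. Only at 300 or more reads, where there were 16 members, did the medians part, at 175.5 and 219.5 bp. Of the STAT5 reads within 400 bp of the summit, a median of 78.8% lay within 100 bp of it in members, against 64.0% in STAT3-rich tiles. Within height classes the shares were 79.5% and 64.1% from 100 to under 150 reads, and 76.1% and 67.9% from 200 to under 300. The median share was higher in members than in STAT3-rich tiles in each of the 5 classes, including that of 300 or more reads with 68.7% against 59.9%.

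At members, the centred STAT3 count was set beside that of the flanks. At a distance of 1 to 5 kb on both sides, which the rule did not use, members had a median of 4.05 STAT3 reads per 400 bp, and the centred count was at or below this own flank level at 566 members (55.8%, 52.6 to 58.8%). It was over 2 times the flank level at 137 members (13.5%). The centred STAT5 count was over 5 times its own flank level at 954 members (94.0%). The centred windows overlap the tiles that chose the sites, so these shares follow in part from the rule and are a description. The averaged profiles show this as a STAT5 peak of 42.0 reads per site and 50 bp, 36.4 times the level at 1000 to 2000 bp when the central 100 bp are taken. The STAT3 profile had 0.674 reads per site in central bins against 0.827 at 1000 to 2000 bp. The limit of 5 reads keeps the central count down by choice.

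**Figure D4:**
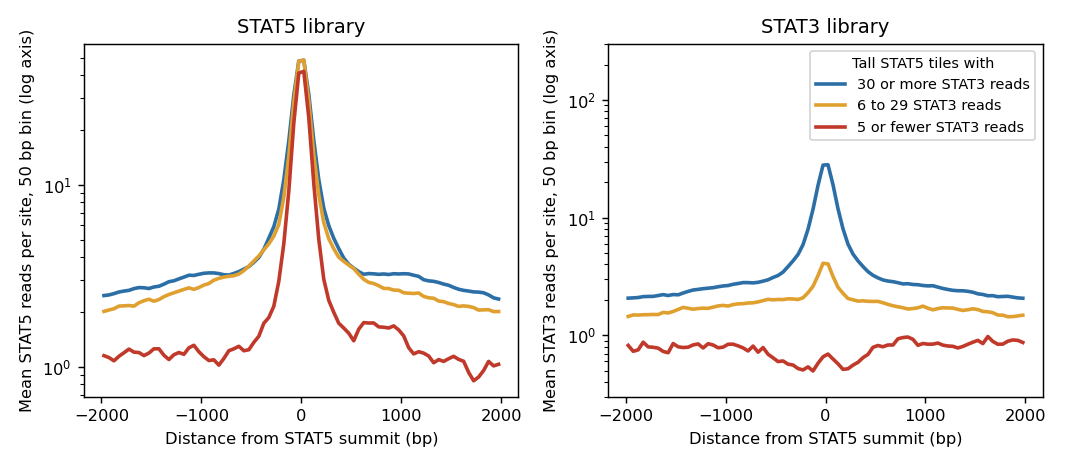
Mean reads per site in bins of 50 bp (vertical, log axes) by distance from the STAT5 summit (horizontal), for the STAT5 library and the STAT3 library; lines are members (5 or fewer STAT3 reads), tall STAT5 tiles with 6 to 29 and with 30 or more STAT3 reads. The 3 STAT5 peaks are of like height, with lower flanks at members, and the STAT3 profile of members dips around the summit and has a small rise at its centre.

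To count STAT3 reads that the choice had not used, tiles were chosen on 1 strand and counted on the other. A low STAT3 limit still held on the choosing strand, and both strands cover the same stretch of DNA, so their counts are not independent. With 40 or more STAT5 and 2 or fewer STAT3 reads required on the plus strand, 1039 tiles held a mean of 2.61 STAT3 reads on the minus strand, against 3.59 in tiles 2 kb to either side, a ratio of 0.727 (0.695 to 0.760). STAT5 on that strand was 64.2 reads per tile, 13.7 times the tiles at 2 kb. Chosen on the minus strand, 1021 tiles gave a STAT3 ratio of 0.689 (0.660 to 0.720). The mean of the flanking tiles included STAT3 peaks: 3.95% of them had 15 or more reads on the counted strand, and none of the 1039 chosen tiles did. The median was 2 reads in both, and 2 or fewer reads were seen in 54.7% of the chosen tiles and 64.4% of the flanking ones. On reads that did not choose them, the chosen tiles thus had a lower mean than the tiles beside them, but not a lower median. How much of the lower mean follows from the limit on the choosing strand was not tested.

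The rule fixed how many STAT3 reads a member holds, but not where in the tile they lie. Of the 3400 STAT3 reads in members, 1157 (34.0%, 32.4 to 35.6%) lay within 50 bp of the STAT5 summit, which covers 23.5% of the tile length, a ratio of 1.45. The ratio was 1.64 within 25 bp and 1.29 within 100 bp. It was present in members with 0 to 2 STAT3 reads (1.38), with 3 (1.55) and with 4 or 5 (1.44), and was 1.50 below the median STAT5 height and 1.40 at or above it. Tiles with 6 to 29 STAT3 reads had 1.74, STAT3-rich tiles 1.81, and the STAT5 reads of members themselves 2.48. A slight gathering of STAT3 reads at the STAT5 summit was therefore measurable over all members together, while 5 reads or fewer cannot show it at a single site. No control library was analysed here, so the part of open or easily aligned DNA in it was not tested. This comparison was chosen after the data were seen.

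Members lay in ground with fewer reads of both libraries than other tall STAT5 tiles. On average this ground was still above the autosomal means of 8.16 STAT3 and 7.07 STAT5 reads per kb, but not at every member. Per 400 bp of flank, the median member had 4.05 STAT3 and 3.85 STAT5 reads, against autosomal means of 3.26 and 2.83. The lower quartiles of members, 2.9 and 2.3 reads, were below these means. At 1 to 5 kb from the summit, the mean was 16.7 STAT3 reads per kb around members, 27.9 around tiles with 6 to 29 STAT3 reads and 38.0 around STAT3-rich tiles, so that members had 0.441 of the STAT3-rich level (0.438 to 0.443). STAT5 reads there were lower by nearly the same factor, with 20.8 per kb around members against 44.7, or 0.466 times (0.464 to 0.468). The difference held within height classes: from 100 to under 150 STAT5 reads there were 16.4 STAT3 reads per kb around members and 36.4 around STAT3-rich tiles, and from 200 to under 300 reads 19.2 and 40.0. The share of members among tall STAT5 sites moved with the STAT3 level of the flanks, whose part in the low count of a member was not tested. It was 23.3% (18.9 to 28.1%) of the 344 sites with under 2 STAT3 reads per 400 bp in their flanks, 4.24% (3.76 to 4.77%) of the 6297 sites with 4 to 8, and 1.25% (0.990 to 1.55%) of the 6417 with 16 or more. Even so, 80 members had flanks of that last kind.

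Members were farther from STAT3 than other tall sites, yet most had it in reach. A tile with 30 or more STAT3 reads lay within 10 kb of 548 members (54.0%, 50.9 to 57.1%), against 76.8% of tiles with 6 to 29 STAT3 reads and 90.5% of STAT3-rich tiles. Without touching tiles, which often hold the same peak, the shares were 53.4%, 72.4% and 82.9%. The median distance to such a tile that did not touch was 8800 bp for members, 3600 bp for the middle set and 1600 bp for STAT3-rich tiles. Within 50 kb, 112 members (11.0%) had no such tile, against 2.71% of STAT3-rich tiles. The range was wide. The member with most STAT3 reads in the 10 kb around it, on chr15:38396800-38397199, had 88 STAT5 and 5 STAT3 reads in its tile and 1132 STAT3 reads in the 10 kb, and a tile of 99 STAT3 reads began 1200 bp away. The one with fewest, on chr2:11762400-11762799, had 98 STAT5 and 3 STAT3 reads and 19 STAT3 reads in 10 kb. The farthest, on chr3:151387600-151387999, lay 368000 bp from a tile of 30 STAT3 reads.

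**Figure D5:**
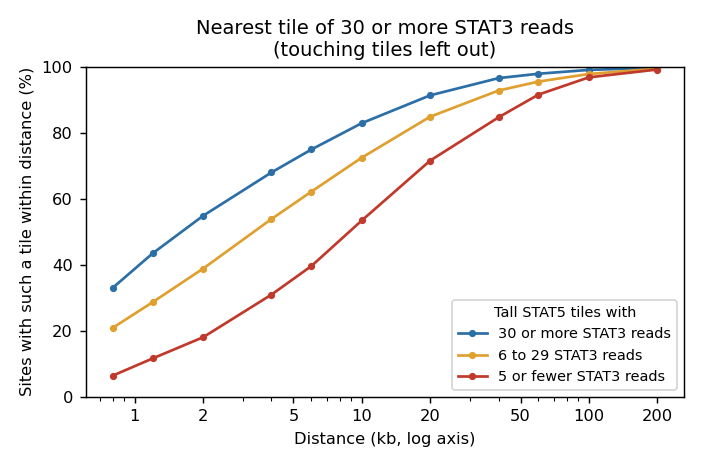
Share of sites (vertical, percent) that have a tile of 30 or more STAT3 reads within a given distance (horizontal, kb, log axis), touching tiles left out, for members and for tall STAT5 tiles with 6 to 29 and with 30 or more STAT3 reads. At 10 kb the shares are 53.4%, 72.4% and 82.9%.

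Members were also more isolated from other STAT5 sites. The nearest tall STAT5 tile that did not touch was a median of 16400 bp away, against 7200 bp for the middle set and 5600 bp for STAT3-rich tiles. No such tile lay within 50 kb of 242 members (23.8%, 21.3 to 26.6%), against 15.1% of the middle set and 10.9% of STAT3-rich tiles. From 100 to under 150 STAT5 reads, the median number of such tiles within 50 kb was 2 in members, 3 in the middle set and 4 in STAT3-rich tiles. At 300 or more reads it was 5 in members, 5 in the middle set and 6 in STAT3-rich tiles. Few members were near each other, with 15 neighbouring pairs within 10 kb. A pair on chromosome 3 had 92 STAT5 reads in the tile from 83918000 and 158 in the tile from 83918800, with 5 and 0 STAT3 reads. Another pair on that chromosome, from 157691200 and from 157692800, had 122 and 175 STAT5 reads with 4 and 3 STAT3 reads. On the same chromosome, tiles from 136105600 and 136107600 had 82 and 118 STAT5 reads with 2 and 4 STAT3 reads, and were 112000 bp or more from a tile of 30 STAT3 reads. On chromosome 1, tiles from 108688400 and 108690800 had 163 and 91 STAT5 reads with 4 and 5 STAT3 reads, and a tile with 575 STAT5 and 62 STAT3 reads lay 32000 bp from the first.

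All 19 autosomes held members, from 28 on chromosome 19 to 83 on each of chromosomes 1 and 2. Per length this was 0.311 per Mb on chromosome 8 to 0.533 on chromosome 11, with a median of 0.411. The share of tall STAT5 tiles with 5 or fewer STAT3 reads was lowest on chromosome 17 (2.88%, 1.96 to 4.06%) and highest on chromosome 18 (5.08%, 3.64 to 6.89%), and these intervals overlap. The median STAT5 count of members was between 102 and 128 reads on each chromosome.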

How the data were processed

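ChIP-seq reads of 1 STAT3 and 1 STAT5 library from mouse Th17 cells were used as deposited: lists of aligned reads of 25 nt without header, start and end counted from 1, on mm9 per the submitters' processing notes. Aligner, filters and the step that left 1 read per position and strand were steps by the authors, not given in the sources used here. Library amplification ran for 18 cycles, per the labels' protocols. Tiles, summits (densest position by reads within 15 bp), half-height widths, flanks and distances were computed in Python 3.11.15 (pandas 2.3.3, numpy 2.4.6 and scipy 1.17.1, with matplotlib 3.10.9 for plots), and the scripts were tested on simulated data. Shares have exact (Clopper-Pearson) 95% intervals and ratios of counts conditional exact ones. For a STAT3 count of 0 only the lower end of the interval of the ratio is given. Comparison sets were found by the same rule with 6 to 29 or 30 or more STAT3 reads. Sites of 1 library are not replicates. Members and comparisons were chosen with earlier results of these data known. Named were the 12 tallest members, the 6 next tallest with 0 STAT3 reads, the 5 closest pairs that do not touch and those with most and fewest STAT3 reads in 10 kb. Genes, sequences and the planned motif search need a genome and annotation of mm9, not used here. Alternatives changed tile start, read shift, limits, strand filter, depth and mismatches.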

Additional observations from a re-analysis of the deposited data

Results flagged for a closer look

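Chromosome X lay outside the rule. Of its 397 tiles with 80 or more STAT5 reads, 28 held 5 or fewer STAT3 reads, which is 7.05% (exact 95% interval 4.74 to 10.0%), with a median of 116.5 and a maximum of 251 STAT5 reads. They are given here because this chromosome entered no comparison above. Both libraries were sparser there: STAT3 had 3.67 reads per kb on chromosome X against 8.16 on the autosomes, and STAT5 had 2.89 against 7.07. The part of this lower level in the share was not tested.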

How the results depend on the processing

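Of 88 planned recalculations, 54 stayed within 1.5 times (for a count) or within the exact 95% interval (for other values) and 34 moved; of 18 added after the data were seen, 14 stayed and 4 moved. Limits set the number of members. With 3 or fewer STAT3 reads there were 506 members, 1.85% of tall tiles, of which 63.8% stayed at or below that limit when centred, with a flank ratio of 0.390 and 49.0% within 10 kb of a STAT3 tile; with 8 or fewer these were 1882, 7.17%, 80.3%, 0.513 and 60.3%. With 60 or more STAT5 reads there were 1630 members (4.39%), a median of 90 reads, a flank ratio of 0.450 and a width of 103 bp; with 100 or more these were 673, 3.28%, 137, 0.449 and 119 bp. Without a read shift the flank ratio was 0.432, the width 156 bp and the gathering of STAT3 reads at the summit 1.31; a shift of 75 bp gave a flank ratio of 0.449, a strand ratio of 0.794 and a width of 119 bp. Tiles started 200 bp later gave a strand ratio of 0.790. STAT3 thinned to the STAT5 depth gave 4.78% and a flank ratio of 0.461, and exact matches only 0.444. The flank ratio was 0.359 at 1 to 2 kb and 0.589 at 5 to 10 kb. The share near a STAT3 tile was 18.9% within 2 kb, 89.1% within 50 kb and 41.3% for tiles of 50 or more STAT3 reads. The gathering at the summit was 1.64 within 25 bp and 1.29 within 100 bp, and without members beside a taller STAT5 tile 80.3% stayed low in STAT3 when centred. Under the alternatives listed here the flank and strand ratios were below 1 and the gathering above 1. Limits, windows and depth change these values by construction; other causes were not tested. The search for the motif was not run. No paired analysis was possible because there was 1 library per antibody.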

Other observations

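Around members, the share of tall STAT5 tiles with few STAT3 reads was close to the 3.78% of all tall STAT5 tiles. It was higher than around the comparison sets. In the share of all tall tiles each tile counts once, whereas around sites the tiles near many sites weigh more. Of the 3622 neighbours within 50 kb counted over all members, touching tiles apart and a tile counted once for each member it neighbours, 129 held 5 or fewer STAT3 reads (3.56%, exact 95% interval 2.98 to 4.22%), against 2.50% (2.33 to 2.68%) of the neighbours of tiles with 6 to 29 STAT3 reads and 1.94% (1.86 to 2.03%) of those of STAT3-rich tiles. Neighbours shared between sites are not independent, so these intervals are too narrow.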
